A study of Mus musculus with 568 samples.

Results

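The members described here are 10 genes that write, keep, erase or protect DNA methylation: *Dnmt1*, *Uhrf1*, *Dnmt3a*, *Dnmt3b*, *Dnmt3l*, *Tet1*, *Tet2*, *Tet3*, *Zfp57* and *Trim28*. They were taken by name for their function, under a rule that uses no measured value. All 10 are among the 16335 genes of the bulk RNA-seq table and among the 15718 genes of the single-cell table.

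The cells derive from XRep, a female hybrid mouse ESC line with 1 X chromosome of 129S1/SvImJ and 1 of CAST/EiJ origin. A *Tsix* truncation on the 129S1/SvImJ X makes that X the one that is inactivated, and it carries a GFP reporter (XGFP), while the CAST/EiJ X carries tdTomato (XTomato). All groups also carry rtTA at *Rosa26* and doxycycline-inducible piggyBac transgenes of *Prdm14*, *Blimp1* and *Tfap2c*, so that doxycycline and not cytokines drives germ cell induction. Bulk libraries, 4 per group, were made from unsorted ESCs, unsorted epiblast-like cells (EpiLCs) after 4 days, and 2 kinds of primordial germ cell-like cells (PGCLCs) after 5 days with doxycycline. Both kinds were sorted as SSEA1+/CD61+, and then as XGFP+ or XGFP-. ESCs had been kept in serum and LIF with a 2i/LIF step before EpiLC induction, and which of these media the ESC libraries came from is not given in the sources used here. For single cells, XGFP+ or XGFP- PGCLCs were cultured for 6 days in reconstituted ovaries (rOvaries) with somatic cells of female embryonic gonads and mesonephros. XTomato+ cells were then sorted into XGFP+ constitutive cells (from XGFP+ PGCLCs) and XGFPhigh, XGFPintermediate and XGFPlow cells (all from XGFP- PGCLCs).

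A methyl group on the cytosine of a CpG is copied after replication by DNMT1, which UHRF1 brings to the half-methylated daughter strands. DNMT3A and DNMT3B methylate new sites, with DNMT3L as a cofactor that has no catalytic activity of its own, and the TET enzymes oxidise the methyl group, which starts its removal. ZFP57 binds the methylated copy of imprint control regions and recruits TRIM28 (KAP1), a scaffold for silencing enzymes, so that imprints survive where the rest of the genome is demethylated. Primordial germ cells are known for the opposite, the erasure of methylation including that of imprints.

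Bulk depth lay between 29.8 M and 46.5 M reads on genes per library. Library numbers in the labels run from 1 to 4 with no clone or culture named. The study's text describes the libraries of a group as a pair of clones, each with technical replicates, and which number belongs to which clone is not given in the labels. The fits here take the 4 libraries as independent, so p-values measure only the spread between these libraries, and with repeats of a clone among them the SDs, SEs and adjusted p-values of all bulk comparisons are too small. The labelled cell types were compared with marker lists at an adjusted p below 0.001. All 7 naive ESC markers (such as *Esrrb* and *Zfp42*) were lower and all 5 EpiLC markers (such as *Fgf5* and *Otx2*) higher in EpiLCs than in ESCs. Of 9 germ cell markers, 9 were higher in XGFP+ and 7 in XGFP- PGCLCs than in ESCs, 2 of which (*Prdm1* and *Tfap2c*) are also transgenes. A lower level in a bulk library can come from fewer cells with the transcript or from less RNA per cell, and these cannot be told apart.

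The promoters of *Dnmt3b* and *Zfp57* are shown because these genes had the widest ranges of the 10 over the bulk groups while their starts differ in CpG content. Each line gives the 250 bases before a RefSeq transcript start on GRCm38.p6, 5′ to 3′ on the strand of the gene, with every CpG in capitals. *Dnmt3b* lies at chr2:153649450-153687730 on the plus strand, and the bases shown are chr2:153649199-153649448. *Zfp57* lies at chr17:37001163-37010635 on the plus strand, and the bases shown, before the first of its 3 RefSeq starts, are chr17:37000913-37001162.
Dnmt3b: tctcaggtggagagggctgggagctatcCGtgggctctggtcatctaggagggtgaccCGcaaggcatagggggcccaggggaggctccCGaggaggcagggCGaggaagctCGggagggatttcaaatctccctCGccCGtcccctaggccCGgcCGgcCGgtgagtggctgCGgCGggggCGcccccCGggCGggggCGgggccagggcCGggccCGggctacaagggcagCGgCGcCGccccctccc
Zfp57: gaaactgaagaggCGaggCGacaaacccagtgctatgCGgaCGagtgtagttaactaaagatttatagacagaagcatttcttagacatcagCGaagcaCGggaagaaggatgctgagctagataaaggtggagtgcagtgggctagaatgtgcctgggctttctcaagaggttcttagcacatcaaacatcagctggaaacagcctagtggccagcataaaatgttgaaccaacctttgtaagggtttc
The *Dnmt3b* stretch holds 21 CpG and the *Zfp57* stretch 6. Over 300 bases around the start, which include 50 bases after it, *Dnmt3b* has 30 CpG, a number reached by 11.7% of 32851 mouse promoters, and *Zfp57* has 6, a number reached by 56.4%. The median of all promoters was 7 CpG. *Tet2* had the most of the members, 57 CpG in 300 bases, which 0.152% of promoters reach, while the 3 starts of *Dnmt3l* had 3 to 6. Which start was used in these cells was not measured, nor was methylation at these sites.

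The maintenance pair came apart in PGCLCs. *Dnmt1* (chr9:20907209-20959888, minus strand), the maintenance methyltransferase itself, was read at 17338, 18608, 18945 and 19868 normalized counts in the ESC libraries and at 16180, 15854, 15294 and 15662 in the EpiLC libraries. XGFP+ PGCLC libraries held 22405, 21215, 23934 and 22954, and XGFP- PGCLC libraries 23607, 23831, 24076 and 24066. Every PGCLC library was above every ESC and EpiLC library, whereas XGFP+ and XGFP- libraries overlapped. *Uhrf1* (chr17:56303321-56323486, plus strand), whose product directs DNMT1 to replicated DNA, stood at 22218, 20990, 23312 and 23093 in ESCs and at 13584, 13066, 12528 and 12409 in EpiLCs. It was at 3966, 3432, 3042 and 3032 in XGFP+ and at 1988, 1798, 2075 and 1541 in XGFP- PGCLCs. The 4 groups did not overlap at any step of this order.

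Against ESCs, *Uhrf1* was 6.65-fold lower in XGFP+ PGCLCs (log2 fold change -2.74, SE 0.088, adjusted p = 1.45e-14, limma) and 12.1-fold lower in XGFP- PGCLCs (-3.61, adjusted p = 1.78e-16). *Dnmt1* moved the other way and far less, by 0.28 (SE 0.049, adjusted p = 6.06e-05) and 0.36 (adjusted p = 2.37e-06) on the log2 scale. The first of these calls, and the fall of *Dnmt1* from ESCs to EpiLCs (-0.25, adjusted p = 0.00021), were lost when only the groups compared entered the fit, with adjusted p of 0.00171 and 0.00159. The EpiLC call was also lost without ESC library 4 or without EpiLC library 3. Per kilobase of exon, *Dnmt1* transcripts amounted to 0.482 ± 0.027 of the *Uhrf1* transcripts in ESCs and 0.705 ± 0.017 in EpiLCs (mean ± SD of 4 libraries). The same ratio was 3.94 ± 0.618 in XGFP+ and 7.56 ± 1.06 in XGFP- PGCLCs.

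**Figure D1:**
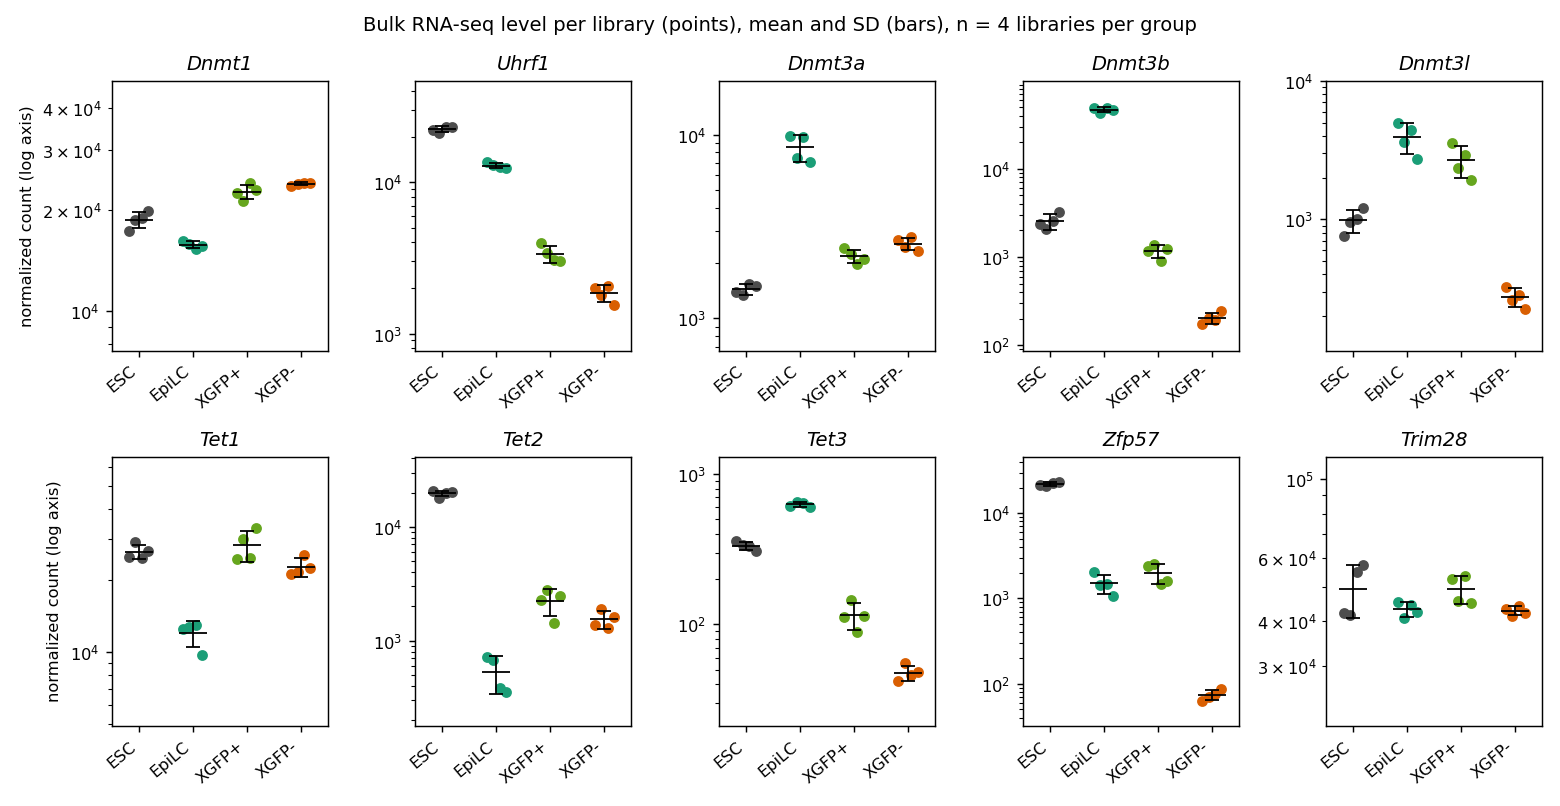
Normalized counts (log axis, scaled per panel) of the 10 members in each bulk library (points) with the mean and SD (bars) of 4 libraries for ESCs, EpiLCs, XGFP+ PGCLCs and XGFP- PGCLCs. *Dnmt3b* spans 173 to 49490 and *Zfp57* 63 to 22980, while *Trim28* stays between 40762 and 57606.

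The de novo methyltransferases peaked in EpiLCs. *Dnmt3b* had 2363, 2051, 2554 and 3274 normalized counts in ESCs and 49201, 43335, 49490 and 45921 in EpiLCs, 18.4-fold more. It then stood at 1180, 1379, 907 and 1224 in XGFP+ PGCLCs and at 173, 201, 192 and 245 in XGFP- PGCLCs. All 4 groups were apart from each other, with XGFP- PGCLCs lowest. Against EpiLCs, *Dnmt3b* was 40.1-fold lower in XGFP+ (log2 fold change -5.34, SE 0.134, adjusted p = 4.42e-16) and 231-fold lower in XGFP- PGCLCs (-7.86, adjusted p = 4.64e-18).

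*Dnmt3a* (chr12:3806007-3914443, plus strand), the other de novo enzyme, was at 1383, 1332, 1528 and 1508 in ESCs and at 9793, 7473, 9701 and 7098 in EpiLCs, a log2 fold change of 2.55 (SE 0.098, adjusted p = 9.81e-14). PGCLCs held 2401, 2238, 1970 and 2096 (XGFP+) and 2657, 2448, 2771 and 2322 (XGFP-). Unlike *Dnmt3b*, *Dnmt3a* stayed above its ESC level in both kinds of PGCLC, by 0.60 (adjusted p = 2.80e-05) and 0.82 (adjusted p = 3.82e-07) on the log2 scale. Its XGFP+ and XGFP- libraries overlapped. As transcripts per kilobase of exon, *Dnmt3b* exceeded *Dnmt3a* 5.78 ± 0.897 times in ESCs, 18.2 ± 2.21 times in EpiLCs and 1.75 ± 0.241 times in XGFP+ PGCLCs. In XGFP- PGCLCs the ratio was 0.263 ± 0.059, so that *Dnmt3a* was there the more abundant of the pair.

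*Dnmt3l* (chr10:78041947-78063622, plus strand), the cofactor, was at 758, 958, 1015 and 1207 in ESCs and at 5000, 3638, 4454 and 2751 in EpiLCs (log2 fold change 1.99, SE 0.192, adjusted p = 3.34e-08). XGFP+ PGCLCs still held 3560, 2351, 2934 and 1935, whereas XGFP- PGCLCs held 327, 261, 284 and 225. The XGFP+ libraries overlapped the EpiLC libraries, and the difference between them missed the threshold (-0.56, SE 0.192, adjusted p = 0.0138). Of the 3 de novo genes, *Dnmt3l* thus stood 2.74-fold above ESCs in XGFP+ PGCLCs, while *Dnmt3b* was 2.18-fold below ESCs in the same libraries. In XGFP- PGCLCs *Dnmt3l* was 9.83-fold lower than in XGFP+ PGCLCs (-3.27, adjusted p = 4.63e-10) and also below ESCs (-1.83, adjusted p = 6.75e-08).

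The 3 TET dioxygenase genes each had a course of their own. *Tet1* (chr10:62804570-62908996, minus strand), the main TET gene of pluripotent and early germ cells, was at 25134, 28939, 24814 and 26648 in ESCs and at 12513, 12691, 12975 and 9743 in EpiLCs. PGCLCs held 24528, 29780, 24865 and 33107 (XGFP+) and 21259, 21665, 25687 and 22493 (XGFP-). Only the EpiLC libraries were apart, 2.20-fold below ESCs (log2 fold change -1.15, SE 0.101, adjusted p = 1.01e-08), and both kinds of PGCLC overlapped the ESC range.

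*Tet2* (chr3:133463679-133545139, minus strand) was at 20696, 18105, 19796 and 20169 in ESCs and at 720, 677, 386 and 351 in EpiLCs, 36.9-fold lower (log2 fold change -5.27, SE 0.216, adjusted p = 2.26e-13). It stood at 2257, 2806, 1421 and 2465 in XGFP+ and at 1376, 1880, 1285 and 1605 in XGFP- PGCLCs. The PGCLC libraries were thus all above EpiLCs, by 2.10 (adjusted p = 6.30e-08) and 1.58 (adjusted p = 2.12e-06) on the log2 scale, but 8.80-fold and 12.8-fold below ESCs. *Tet3* (chr6:83362373-83459084, minus strand), best known from the egg and zygote, was low throughout, at 359, 337, 330 and 309 in ESCs and 616, 651, 646 and 604 in EpiLCs. In PGCLCs it was at 112.4, 146.4, 89 and 113.7 (XGFP+) and at 42, 55, 46 and 48 (XGFP-), and no groups overlapped. As transcripts per kilobase, *Tet1* exceeded *Tet2* only 1.47 ± 0.189 times in ESCs, but 26.6 ± 8.38 times in EpiLCs, 14.3 ± 3.48 times in XGFP+ and 16.6 ± 3.88 times in XGFP- PGCLCs.

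The imprint keepers parted as well. *Zfp57* was at 21482, 20828, 22560 and 22980 in ESCs and at 2032, 1451, 1490 and 1078 in EpiLCs, 14.5-fold lower (log2 fold change -3.89, SE 0.174, adjusted p = 6.99e-13). XGFP+ PGCLCs held 2415, 2525, 1471 and 1603, which overlapped EpiLCs, and XGFP- PGCLCs held 63, 70, 76 and 87. XGFP- PGCLCs were 27.1-fold below XGFP+ PGCLCs (-4.71, adjusted p = 2.31e-12) and 297-fold below ESCs (-8.20, adjusted p = 3.46e-17). *Trim28* (chr7:12999114-13031035, plus strand), which many other zinc finger repressors also recruit, was at 42124, 41802, 55100 and 57606 in ESCs and at 45244, 40762, 44443 and 42563 in EpiLCs. It was at 52565, 45746, 53518 and 44984 in XGFP+ and at 43373, 41389, 44296 and 42361 in XGFP- PGCLCs. No comparison called *Trim28*, and its ESC libraries fell into a lower pair (1 and 2) and a higher pair (3 and 4). Per kilobase, *Trim28* transcripts exceeded those of *Zfp57* 2.03 ± 0.26 times in ESCs and 535 ± 73.04 times in XGFP- PGCLCs.

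Between XGFP- and XGFP+ PGCLCs, which share the day and the surface marker sort but differ in the GFP gate, 5 of the 10 members were called, all lower in XGFP-. Over all 16281 genes tested, 23.8% were called in this comparison, 11.3% higher and 12.5% lower. Ordered by size, the members were *Zfp57* (-4.71, SE 0.174), *Dnmt3l* (-3.27, SE 0.192), *Dnmt3b* (-2.52, SE 0.134), *Tet3* (-1.23, SE 0.129) and *Uhrf1* (-0.86, SE 0.088), with adjusted p of at most 4.22e-07. For *Uhrf1* the means were 3368 ± 440.0 and 1850 ± 236.4, and for *Dnmt3b* 1173 ± 196.4 and 203 ± 30.5 normalized counts. The other 5 were *Dnmt1* (0.08), *Dnmt3a* (0.23), *Trim28* (-0.20), *Tet1* (-0.29) and *Tet2* (-0.51), with adjusted p from 0.0226 to 0.189. Markers moved with this comparison as well. Of 7 naive ESC markers 5 were lower in XGFP- PGCLCs and none was higher (median log2 fold change -1.40), and of 9 germ cell markers 2 were higher and 3 lower (median 0.32), and their part in the values of the members was not tested. *Trim28* was the 1 member not called although its libraries did not overlap, with 41389 to 44296 in XGFP- against 44984 to 53518 in XGFP+ PGCLCs.

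**Figure D2:**
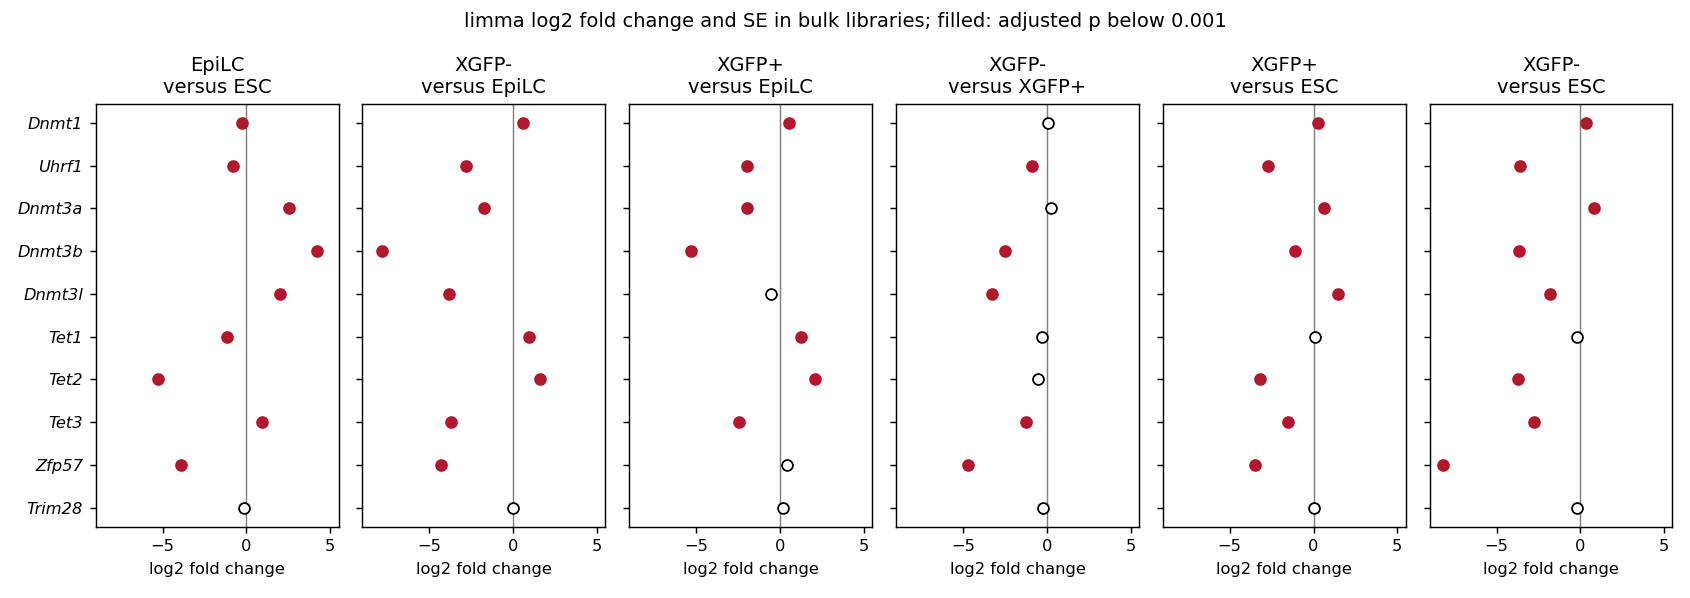
Log2 fold change (x axis) with its SE from limma for the 10 members (rows) in the comparisons of bulk groups, n = 4 libraries per group, taken as independent although some may be technical repeats of a clone. Filled points have an adjusted p below 0.001, as 5 members have between XGFP- and XGFP+ PGCLCs, all to the left of 0.

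In the other comparisons, which share ESC, EpiLC or PGCLC libraries with one another, most members were called. From ESCs to EpiLCs 4 members rose and 5 fell, against 24.9% and 22.9% of all genes (47.8% called in all), with *Trim28* the exception. From EpiLCs to XGFP- PGCLCs 3 rose and 6 fell, against 29.9% and 31.9% of all genes (61.9% called in all). From EpiLCs to XGFP+ PGCLCs 3 rose and 4 fell, against 27.8% and 29.5% (57.3% in all). The risers were *Dnmt1*, *Tet1* and *Tet2* in both. Against ESCs, XGFP+ PGCLCs had 3 members higher (*Dnmt1*, *Dnmt3a*, *Dnmt3l*) and 5 lower, against 25% and 24.9% of all genes (49.9% in all). XGFP- PGCLCs had 2 higher (*Dnmt1*, *Dnmt3a*) and 6 lower, against 29.8% and 29.6% (59.4% in all). *Dnmt3l* was the 1 member called in opposite directions against ESCs, higher in XGFP+ and lower in XGFP- PGCLCs.

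By level per kilobase of exon, *Trim28* led in every group, from 10307 normalized counts per kilobase in XGFP- PGCLCs to 11833 in XGFP+ PGCLCs. In ESCs it was followed by *Zfp57* (5801 ± 260), *Uhrf1* (5260 ± 247), *Dnmt1* (2534 ± 141.9), *Tet1* (1707 ± 121.75) and *Tet2* (1167 ± 66). *Zfp57* and *Uhrf1*, neighbours in that order, differed by slightly more than the sum of their SDs. In EpiLCs *Dnmt3b* (9202 ± 573) came next to *Trim28*, and in both kinds of PGCLC *Dnmt1* did (3067 ± 154 and 3239 ± 30.2). *Tet3* was the lowest member in every group but EpiLCs, where *Tet2* had a lower mean on this scale (31.6 ± 11.4 against 37.7 ± 1.35 per kilobase, within its SD), and in XGFP- PGCLCs it was at 2.87 ± 0.312 per kilobase.

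A list of 41 further genes of DNA methylation and imprint control, made by function, was compared in the same way. Between XGFP- and XGFP+ PGCLCs 5 rose and 6 fell, where 11.3% of all genes rose and 12.5% fell, and 30 did not pass the test. The median log2 fold change of the list was -0.05 in this comparison, where the 10 members had -0.69 and all genes tested 0.01. The largest called decreases were *Dppa3* (Stella, which keeps UHRF1 from chromatin), *Atrx* and *Kdm1b*. *Dppa3* was at 9843, 9684, 9520 and 9864 in XGFP+ and at 4425, 5096, 5287 and 5980 in XGFP- PGCLCs (-0.91, adjusted p = 4.26e-05). *Atrx* lies on the X chromosome, codes for a chromatin remodeller, and had a log2 fold change of -0.87 (adjusted p = 1.63e-07). *Kdm1b*, a histone H3K4 demethylase needed for maternal imprints, had -0.78 (adjusted p = 2.36e-06). The largest called increases were *Cxxc4* (2.22), *Mbd2* (0.56), a reader of methylated CpG, and *Tdg* (0.38), the glycosylase that removes oxidised methylcytosine. *Cxxc4* was close to the detection limit, with 1 to 3 normalized counts in XGFP+ and 10 to 20 in XGFP- PGCLC libraries.

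From ESCs to EpiLCs 15 of the 41 rose and 10 fell, where 24.9% of all genes rose and 22.9% fell. *Tdg* (1.36, adjusted p = 5.33e-12, limma) and *Qser1* (1.25, adjusted p = 5.60e-07) were behind *Cxxc4* among the risers. *Cxxc4* was listed at 0 in all 4 ESC libraries and at 45 to 72 in EpiLCs. The largest falls were in *Prdm14* (-4.73), *Dppa3* (-1.77) and *Smug1* (-1.13). From EpiLCs to PGCLCs *Prdm14*, known to hold down *Dnmt3b*, rose by 4.76 (XGFP+) and 5.09 (XGFP-), but reads of the gene and of the transgene cannot be told apart. *Dppa3* rose by 3.84 and 2.93, and the third riser was *Smug1* in XGFP+ (1.34) and *Gadd45a* in XGFP- (1.93). *Cxxc4* (-4.30 and -2.09) and *Hells* (-0.85 and -1.05), a remodeller that opens DNA to methylation, fell in both, together with *Tdg* in XGFP+ (-1.37) and *Qser1* in XGFP- (-0.99). Counts were 17 higher and 12 lower in XGFP+ PGCLCs, where 27.8% and 29.5% of all genes were. They were 16 higher and 13 lower in XGFP- PGCLCs, where 29.9% and 31.9% of all genes were.

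Against ESCs, 14 of the 41 were higher and 8 lower in XGFP+ PGCLCs, where 25% and 24.9% of all genes were. The listed genes were led upward by *Dppa3* (2.07), *Cxxc4* (1.63) and *Gadd45a* (1.35) and downward by *Hells* (-0.49), *Cbx1* (-0.45) and *Apex1* (-0.40). In XGFP- PGCLCs 16 were higher and 11 lower, where 29.8% and 29.6% of all genes were. These were led by *Cxxc4* (3.84), *Gadd45a* (2.15) and *Cxxc5* (1.23) and by *Hells* (-0.69), *Daxx* (-0.66) and *Morc3* (-0.60). S phase genes moved beside *Uhrf1*, which peaks in S phase. Of 20 S phase genes, 12 were lower in XGFP+ and 13 in XGFP- PGCLCs than in ESCs, where 24.9% and 29.6% of all genes were. The S phase medians were -0.36 and -0.39 and the lowest values -1.24 and -1.59, against -2.74 and -3.61 for *Uhrf1*. Between XGFP- and XGFP+ PGCLCs 1 S phase gene rose and 2 fell, with a median of 0.00, where 11.3% of all genes rose and 12.5% fell. The part of the cell cycle in the *Uhrf1* values was not tested.

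Among 11700 other genes with a mean normalized count above 100, those whose log2 levels over the 16 libraries were most like a member's are given as a description, since the 4 groups set most of that likeness. For *Dnmt1* they were *Wdr82* (Pearson r = 0.991), *Zfp3* and *Nbr1*, and for *Dnmt3b* they were *Odc1* (0.995), *Smarca1* and *Tpgs2*. *Dnmt3l* was most like *Slc4a8* (0.983), *Shank3* and *CN725425*, *Tet2* like *Jam2* (0.994), *Pxmp2* and *Ubxn2a*, and *Zfp57* like *Cobl* (0.994), *Arhgap30* and *Hsd17b14*. Among the members themselves, over the same 16 libraries, *Dnmt3b* followed *Tet3* (r = 0.943) and ran against *Dnmt1* (-0.937), and *Uhrf1* followed *Zfp57* (0.851).

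In the rOvaries, 462 of 518 sorted cells were kept, among them 88 XGFP+ constitutive and 125 XGFPhigh cells, while 16 XGFPintermediate and 15 XGFPlow wells were left out, with 114594 to 1226154 reads per cell. Reads were counted without molecular identifiers, and each population is 1 sample, so no test was made and the intervals below cover counting error only. Values are means over cells of CPM, the reads of a gene scaled to a common total per cell, and shares of cells with at least 1 read after every cell was thinned to 100000 reads, with exact (Clopper-Pearson) 95% intervals. In 10 empty wells 9 members had no read and *Trim28* had 1 read in 1 well. All XGFP+ constitutive cells were sequenced in lane 2, while 14 XGFPhigh, 16 XGFPintermediate and 15 XGFPlow cells were in lane 2 and all others of these populations in lane 3. Germ cell markers were abundant in all 4 populations (*Dazl* mean 1675 to 3182 CPM, against 3.48 in 24 single ESCs). Some XGFPlow cells had little *Dazl*, 30 at or under a normalized value of 1, against 91 above it.

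*Dnmt3l* separated the populations most. A read was found in 88 of 125 XGFPhigh cells (70.4%, 61.6 to 78.2%) and in 68.2% of XGFP+ constitutive cells (57.4 to 77.7%). It was found in 8 XGFPintermediate cells (6.25%, 2.74 to 11.9%) and in 8 XGFPlow cells (6.61%, 2.90 to 12.6%). Without thinning the shares were 72.8%, 70.5%, 6.25% and 7.44% in that order. Mean levels were 149, 135.1, 4.35 and 8.42 CPM, with single XGFPhigh cells at 0, a median of 67.2 and a highest cell of 1260 CPM. Within lane 2 the 14 XGFPhigh cells averaged 49.4 CPM, the 16 XGFPintermediate cells 7.08 and the 15 XGFPlow cells 0 CPM, and within lane 3 the means were 161, 3.96 and 9.62 CPM. Expression was thus uneven inside the 2 populations with *Dnmt3l*, and nearly all cells of the other 2 had no read.

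**Figure D3:**
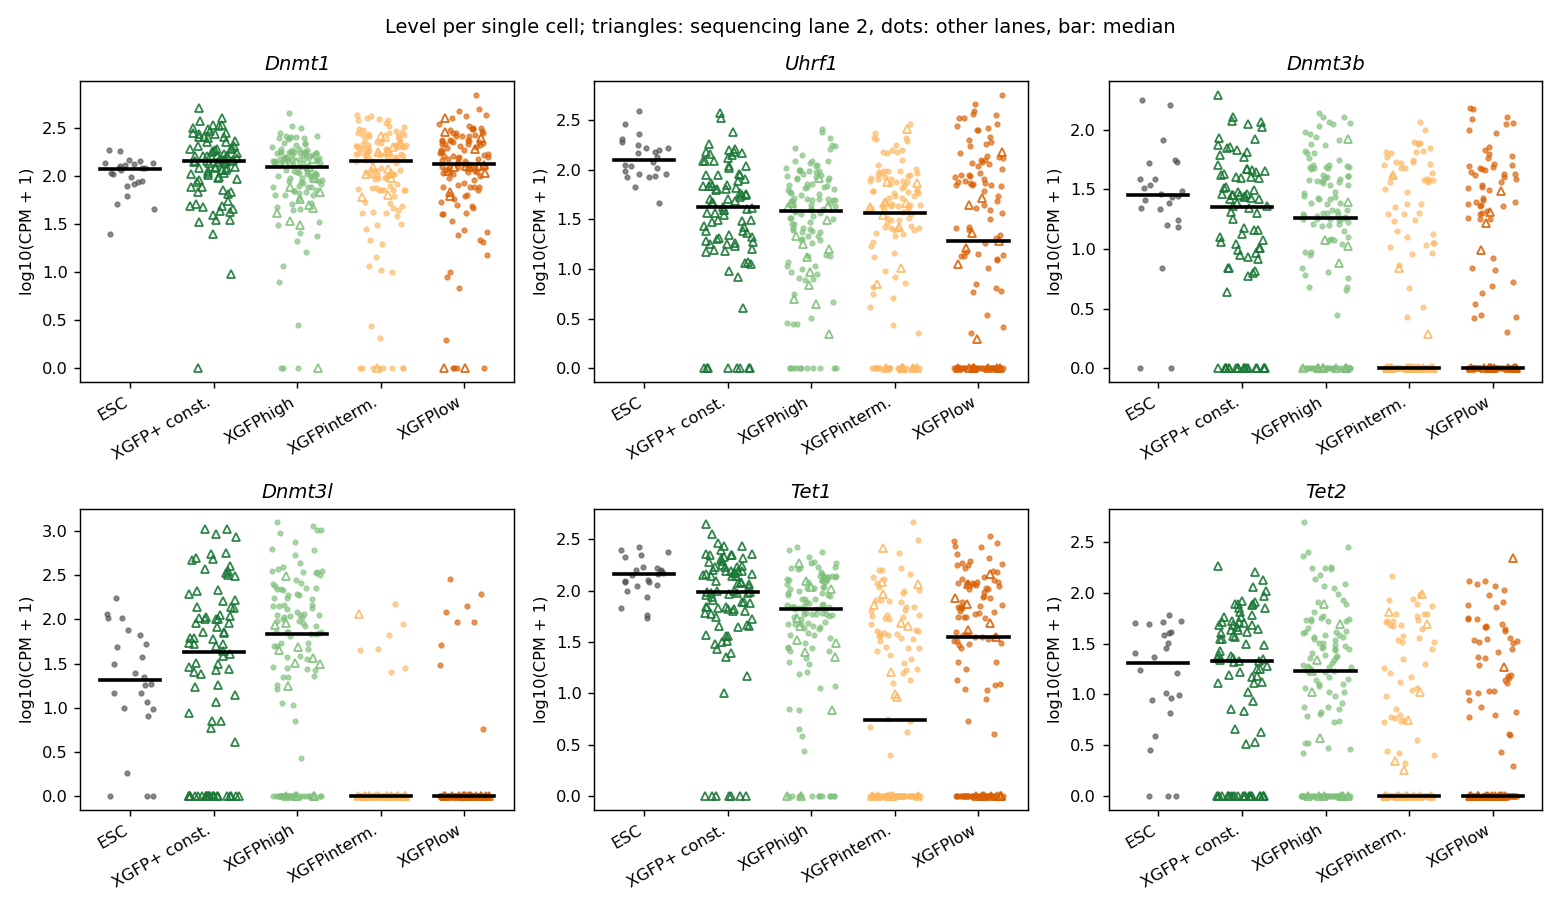
Level per single cell, log10(CPM + 1), of 6 members in single ESCs and the 4 rOvary populations, with triangles for lane 2, dots for other lanes and a bar at the median. The *Dnmt3l* median is 67.2 CPM in XGFPhigh cells and 0 in XGFPintermediate and XGFPlow cells, while *Dnmt1* medians lie between 121.3 and 142.3 CPM in all 4 rOvary populations.

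*Dnmt3b* was found in 66.4% of XGFPhigh cells (57.4 to 74.6%), 35.2% of XGFPintermediate (26.9 to 44.1%) and 38.02% of XGFPlow cells (29.3 to 47.3%), with mean levels of 27.4, 15.4 and 20 CPM. *Tet2* was found in 58.4% (49.2 to 67.1%), 28.9% (21.2 to 37.6%) and 31.4% (23.3 to 40.5%), at 37.6, 13.9 and 16.9 CPM. *Tet1*, at 73.9, 37.7 and 61.4 CPM, was found in 82.4% (74.6 to 88.6%), 49.2% (40.3 to 58.2%) and 61.98% (52.7 to 70.7%). For these 3 genes XGFP+ constitutive cells were at or above XGFPhigh cells in share, at 69.3%, 63.6% and 90.9%. The difference in mean *Tet2* level was seen in lane 3 and not among the few lane 2 cells, where XGFPhigh averaged 14.8, XGFPintermediate 14.04 and XGFPlow 15.6 CPM. The share of lane 2 cells with *Tet2* was 8 of 14 XGFPhigh (57.1%, 28.9 to 82.3%), 4 of 16 XGFPintermediate (25%, 7.27 to 52.4%) and 2 of 15 XGFPlow cells (13.3%, 1.66 to 40.5%).

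Maintenance genes were read in most cells. *Dnmt1* was found in 89.8% to 98.9% of the cells of each rOvary population, at 124.4 to 158 CPM, compared with 108.01 CPM in single ESCs. *Uhrf1* was found in 85.2% of XGFP+ constitutive cells (76.1 to 91.9%), 80.8% of XGFPhigh (72.8 to 87.3%), 68.8% of XGFPintermediate (59.96 to 76.6%) and 59.5% of XGFPlow cells (50.2 to 68.3%). Its mean level nevertheless was highest in XGFPlow cells (70.2 CPM, against 49.8 in XGFPhigh), with a median of 18.4 (37.7 in XGFPhigh) and a highest cell of 569 CPM, so that a smaller share of cells held more reads. That order of means rests on lane 3, where XGFPlow averaged 77.2 CPM, since the lane 2 cells averaged 20.8 CPM in XGFPlow, 23.4 in XGFPhigh, 38.2 in XGFPintermediate and 61.7 in XGFP+ constitutive cells. With means of log2 values *Uhrf1* was instead lower in XGFPlow than in XGFPhigh cells (ratio 0.520). On that scale 550 of all genes were past 1.5-fold higher and 2426 lower. Within each population *Uhrf1* rose and fell with the summed S phase genes of the same cells (Spearman's rho 0.445, 0.406, 0.363 and 0.571 for XGFP+ constitutive, XGFPhigh, XGFPintermediate and XGFPlow), given as a description over cells of 1 sample each. *Trim28* was found in over 99% of cells of every population, at 309 to 432 CPM.

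**Figure D4:**
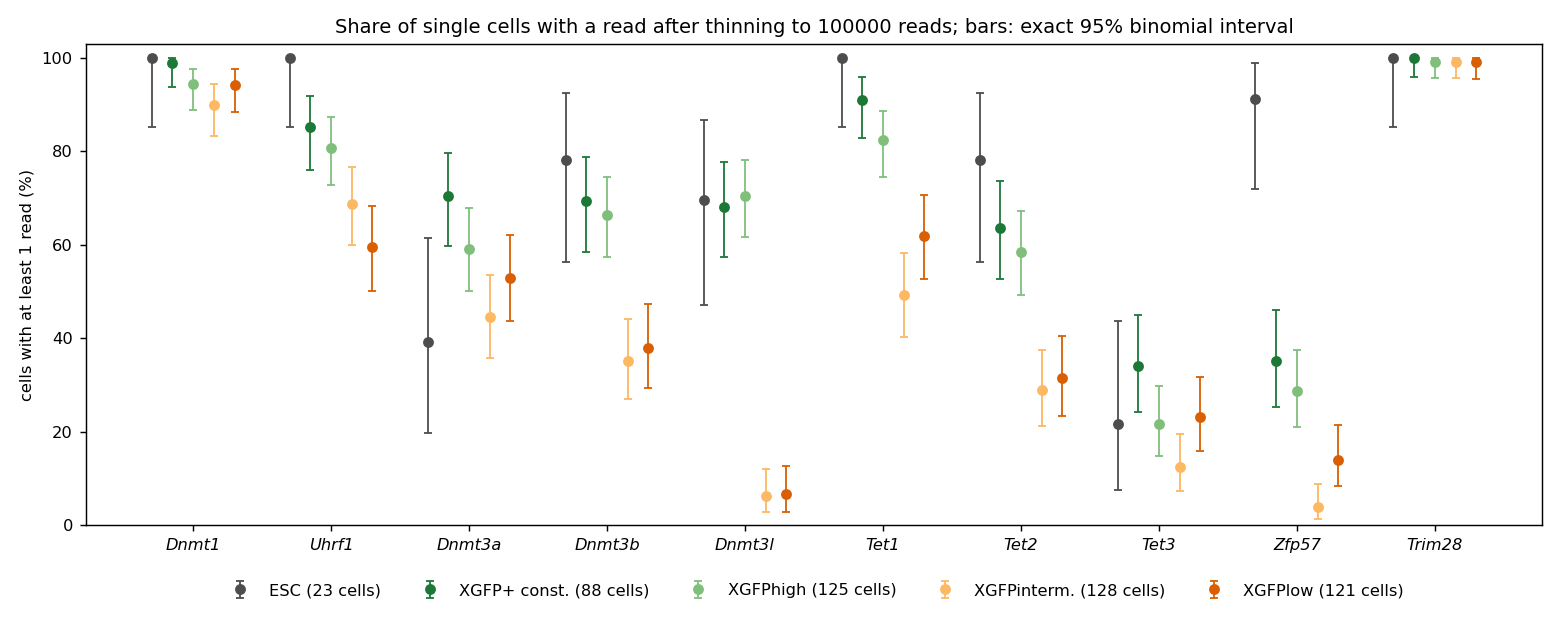
Share of cells with at least 1 read of each member after thinning to 100000 reads (y axis, percent) with exact 95% binomial intervals, for 23 single ESCs and the 4 rOvary populations. *Dnmt3l* drops from 70.4% in XGFPhigh to 6.25% in XGFPintermediate and 6.61% in XGFPlow cells, and *Trim28* stays above 99% in all.

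By the size of the difference in mean CPM, 3 members passed 1.5-fold between XGFPlow and XGFPhigh cells, *Dnmt3l* (ratio 0.0567) and *Tet2* (0.448) lower and *Tet3* (2.97) higher. Of 10253 genes examined, 36.2% passed, 26.9% higher and 9.38% lower. *Tet3* (11.7 against 3.93 CPM) reached the mean of 5 CPM over the 4 populations, required of a gene, with its XGFPlow mean included. With *Dazl* cells alone *Tet3* was under that level. Between XGFPintermediate and XGFPhigh cells 5 members passed, all lower, *Dnmt3l* (0.0293), *Zfp57* (0.0785), *Tet2* (0.369), *Tet1* (0.511) and *Dnmt3b* (0.563), against 41.2% of all genes, 29.4% higher and 11.8% lower. With lane 2 alone (16 against 14 cells), 6 members passed, *Dnmt3l*, *Dnmt3b* and *Tet3* lower but *Dnmt1* (1.97), *Uhrf1* (1.64) and *Dnmt3a* (1.51) higher, and *Tet1* (0.794) and *Tet2* (0.946) did not pass. Of 9823 genes examined there, 46.4% passed, 2996 higher and 1559 lower. With *Dazl* cells alone 5 passed, all lower, with *Dnmt3a* (0.623) in place of *Zfp57*, which was then under the level required of a gene. Of 9809 genes examined in *Dazl* cells, 41.1% passed, 2752 higher and 1276 lower. The split of all genes depends on the average taken. Means of log2 values turned 2753 higher and 962 lower genes into 550 and 2426 for XGFPlow, and 3012 and 1210 into 877 and 2260 for XGFPintermediate, and moved the median log2 ratio of all genes from 0.23 to -0.32 and from 0.24 to -0.24. *Dnmt3l*, at a ratio of 0.0131 and 0.0100 on that scale, stayed far below either median, and *Tet3* was no longer past the fold.

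Between XGFPhigh and XGFP+ constitutive cells, which reached the rOvary from XGFP- and XGFP+ PGCLCs, 2 members passed, *Tet1* (0.654) and *Tet3* (0.637), both lower in XGFPhigh, against 13.1% of all genes, 4.77% higher and 8.29% lower. Of the 5 members called lower in XGFP- than in XGFP+ PGCLCs, *Tet3* thus passed in the same direction, and the other 4 did not pass, with *Dnmt3l* at a ratio of 1.10, *Dnmt3b* at 0.920, *Zfp57* at 0.870 and *Uhrf1* at 0.808. *Tet3* was low, at 3.93 against 6.17 CPM, and reached the mean of 5 CPM required of a gene with its XGFPlow mean of 11.7 CPM included. With *Dazl* cells alone *Tet3* was under that level. Population and lane cannot be told apart beyond the 14 XGFPhigh cells of lane 2, which differed from the lane 3 cells of their own population (*Trim28* 209 against 443 CPM, *Dnmt1* 73.8 against 130.8 CPM). With lane 2 alone, 8 members passed the fold, all lower in XGFPhigh and with *Dnmt3l* (0.366), *Dnmt3b* (0.318) and *Uhrf1* (0.379) among them, and so did 51.3% of all genes. *Tet3* (0.886) did not pass in lane 2 alone.

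*Zfp57* was sparse in rOvary cells, found in 35.2% of XGFP+ constitutive (25.3 to 46.1%), 28.8% of XGFPhigh (21.1 to 37.6%), 3.91% of XGFPintermediate (1.28 to 8.88%) and 14.1% of XGFPlow cells (8.40 to 21.5%), against 91.3% of single ESCs. Inside XGFPlow the *Zfp57* cells were mostly those with little *Dazl*. Of the 91 XGFPlow cells with *Dazl* above 1, 2 had a *Zfp57* read (2.20%, 0.267 to 7.71%), and of the 30 at or under 1, 15 had one (50.0%, 31.3 to 68.7%). *Tet3* was split in the same way, with 12 of 91 (13.2%, 7.0 to 21.9%) and 16 of 30 (53.3%, 34.3 to 71.7%). The mean of *Dnmt3a* was 29.2 CPM above and 101.1 CPM at or under the limit.

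*Uhrf1* ran the other way, found in 67.03% of the XGFPlow cells with *Dazl* and 36.7% of those without, and so did *Dnmt1*, at 186 and 72.01 CPM. In the cells at or under the limit the germ cell markers summed to 595 CPM against 4251 above it, the 6 gonadal somatic markers to 96.2 against 6.06 CPM, and the mesonephros markers to 49.7 against 0.201 CPM. *Dazl*, by which the cells were split, is itself a germ cell marker of that sum, at 14.6 against 2841 CPM, so the germ cell difference is in part set by the split. Among all XGFPlow cells, 2 had over 100 CPM of gonadal somatic markers and 3 of mesonephros markers. Among XGFPintermediate cells, 5 had over 100 CPM of endothelial and blood markers, which averaged 309 CPM in its 12 cells with *Dazl* at or under 1 and 0.417 CPM in its other cells. The part of such cells in these values was not tested. With *Dazl* cells alone, *Zfp57* averaged 0.573 CPM in XGFPlow against 7.22 CPM in XGFPhigh (ratio 0.0793), and *Tet3* averaged 5.76 against 3.96 CPM (1.46), so *Tet3* no longer passed 1.5-fold.

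**Figure D5:**
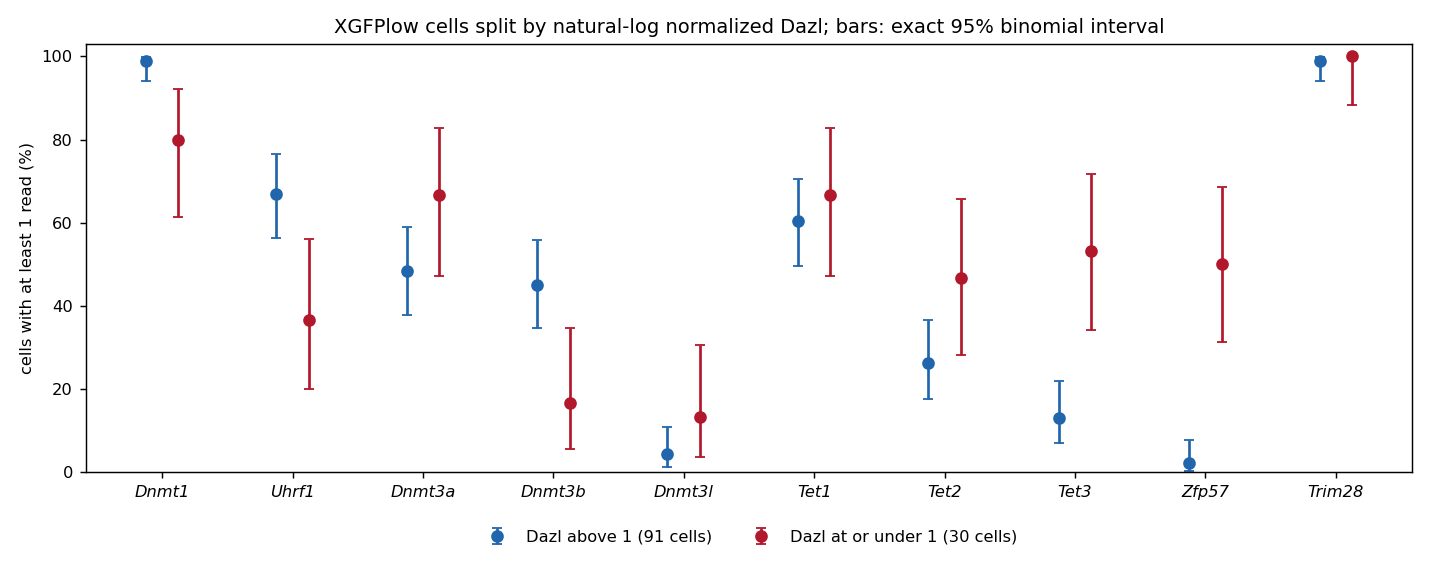
Share of XGFPlow cells with at least 1 read of each member after thinning (y axis, percent), split into 91 cells with natural-log normalized *Dazl* above 1 and 30 cells at or under 1, with exact 95% binomial intervals. *Zfp57* is at 2.20% and 50.0%, and *Tet3* at 13.2% and 53.3%.

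Of the 41 listed methylation and imprint genes, 39 were high enough to compare between cells. Between XGFPlow and XGFPhigh cells 9 were past 1.5-fold higher and 2 lower, led by *Smug1* (ratio 6.78), *Mbd1* (2.59) and *Mbd2* (2.21), with *Gadd45a* (0.278) and *Prdm14* (0.491) lower, where 26.9% of all genes were higher and 9.38% lower. Between XGFPintermediate and XGFPhigh cells 10 were higher and 5 lower, with *Smug1* (3.04), *Zbtb33* (2.83) and *Setdb1* (2.14), the H3K9 methyltransferase that TRIM28 recruits, at the top and *Gadd45a* (0.204), *Cdca7* (0.453) and *Prdm14* (0.455) at the bottom, where 29.4% of all genes were higher and 11.8% lower. Both splits, as said of all genes, depend on the average taken. Between XGFPhigh and XGFP+ constitutive cells none was higher and 6 were lower, where 4.77% of all genes were higher and 8.29% lower.

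Meiotic markers summed to 1433 CPM in XGFPhigh, 4267 in XGFPintermediate, 2813 in XGFPlow and 1270 in XGFP+ constitutive cells. Naive ESC markers summed to 1414, 219, 293 and 1056 CPM in the same order. The meiotic sum in XGFPlow was mostly *Stra8*, at 2399.1 CPM. Of the 6 meiotic markers, 2 were past 1.5-fold higher and 1 lower in XGFPlow than in XGFPhigh cells, with a median ratio of 0.75216. Between XGFPintermediate and XGFPhigh cells all 6 were past it, higher in XGFPintermediate. The share interval in XGFPlow cells lay below that in XGFPhigh cells for 5 members (*Dnmt3l*, *Dnmt3b*, *Tet1*, *Tet2* and *Uhrf1*). Such intervals were not counted over all genes, so this number is not a result about the members. Fewer genes were found per cell in XGFPlow (median 7253) than in XGFPhigh cells (8056). Naive markers were also lower in XGFPlow, and the part of germ cell stage in these differences was not tested.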

How the data were processed

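Bulk RNA-seq values are a normalized signal: per the labels and the study's methods, the authors aligned stranded total RNA reads with STAR to mm10 with strain SNPs masked, applied WASP filtering, counted with HTSeq 0.6.1 and divided each library by its DESeq2 1.16 size factor. Whole reads were recovered from 100% of the values within 0.01 read, for the alternatives. Single-cell values are read counts per gene (full-length, no molecular identifiers) as deposited. The deposited allelic fractions cover only genes on the X and 1 autosome, hold no member and were not used.

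Differential expression was tested with limma 3.58.1 (R 4.3.3, limma-trend) on log2(normalized count + 1) of all 16 libraries, in 16281 genes with a mean above 10, with Benjamini-Hochberg adjustment over all of them and calls at an adjusted p below 0.001. A fold change given as n-fold is a ratio of group means. Tested on simulated data (XGFP- versus XGFP+ PGCLC, 16281 genes, 200 changed), limma recovered 32.84%, 59.7% and 84.85% of genes changed 1.5-, 2- and 4-fold, with 0 false calls. Alternatives were edgeR 4.0.16, DESeq2 1.42.0, other pseudocounts, filters and scalings, each library left out, and the replicate number as a block. Deviations of same-numbered XGFP+ and XGFP- libraries correlated weakly, with r of 0.253, 0.135, 0.20 and 0.307, while for other groups r lay between -0.0105 and 0.16. Whether the numbers mark a pairing was not tested.

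Wells were used if they held 4000 genes or more, 10000 reads or more and no more than 5% mitochondrial reads. Doublets were not called, since wells received single sorted cells. Folds were taken for genes with a mean of at least 5 CPM over the 4 populations, and *Dazl* is a natural-log normalized value. Positions and merged exon lengths are from GENCODE vM21 on mm10. RefSeq promoters (GRCm38.p6) matched all 10 members with 19 entries.

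The members and gene lists were chosen with earlier results of these data known. Named beside the members are the 3 largest called increases and decreases of the list in each comparison and the 3 genes most like *Dnmt1*, *Dnmt3b*, *Dnmt3l*, *Tet2* and *Zfp57*; for single cells the list genes were named after their values were seen.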

Additional observations from a re-analysis of the deposited data

Results flagged for a closer look

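Of 40 groups of 4 libraries (10 members in 4 groups), 1 held a library far from the others. *Tet1* in EpiLC library 4 stood at 9743 normalized counts, below the other EpiLC libraries at 12513 to 12975, and this gap took 0.857 of the range of the group, above the limit of 0.829 for 4 values. Chance alone passes that limit in about 1 of 20 groups. Without this library *Tet1* remained called lower in EpiLCs than in ESCs.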

How the results depend on the processing

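Over 60 log2 fold changes (10 members in 6 comparisons), 1592 of 1620 values under an alternative kept direction and side of the threshold, 15 lost the call, 3 gained it and 10 changed sign, and 42 fold changes kept both throughout. All sign changes were in values not called: *Trim28* in XGFP- PGCLCs versus EpiLCs (-0.013) came to 0.089 with quantile normalization, 0.009 and 0.001 without EpiLC library 1 or 3, and 0.004 without XGFP- library 2, with a range of -0.041 to 0.009 over single libraries left out. *Trim28* in XGFP+ PGCLCs versus ESCs (0.013) came to -0.056 and -0.060 without ESC library 1 or 2 and to -0.021 and -0.029 without XGFP+ library 1 or 3 (range -0.060 to 0.094). *Tet1* versus ESCs came to -0.003 in XGFP+ without library 4 (range -0.003 to 0.142), and to 0.020 in XGFP- with quantile normalization. A minimum absolute log2 fold change of 1 dropped 11 calls, among them *Uhrf1* between XGFP- and XGFP+ PGCLCs, and an adjusted p below 0.05 added 3. Without 1 library, the called members numbered 8 to 9 from ESCs to EpiLCs. In every such case they numbered 9 (XGFP-) and 7 (XGFP+) against EpiLCs, 8 in each PGCLC kind against ESCs and 5 between the PGCLCs. With the replicate block, which pairs libraries of the same number, 5 members were called between XGFP- and XGFP+ PGCLCs, and it changed no call of a member in any comparison.

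In single cells, the members past 1.5-fold between XGFPhigh and XGFP+ constitutive cells (2) became 0 at 2-fold, 1 with *Dazl* cells alone, 1 with no filter but 10000 reads, and 8 with lane 2 alone. Between XGFPlow and XGFPhigh cells (3) the members became 6 with lane 2 alone and 5 with means of log2 values, where 52.8% and 42.4% of all genes passed. Between XGFPintermediate and XGFPhigh cells (5, all lower) the members became 3 at 2-fold, and 6 with lane 2 alone, 3 of them higher. Of all genes 20.1% and 46.4% passed in that order. Members whose share interval in XGFPlow lay below that in XGFPhigh (5) became 3 when cells were thinned to 50000 reads (*Uhrf1*, *Dnmt3l* and *Tet2*) and 6 with no thinning, which added *Zfp57*. With *Dazl* cells alone they were 5, with *Zfp57* in place of *Uhrf1*. These interval counts were made for the members only and have no count over all genes beside them. Lane 3 alone, chosen after seeing the data, gave 3 and 6 members for XGFPlow and XGFPintermediate, where 37.0% and 43.4% of all genes passed. Of 140 shares under alternatives, 110 stayed within their interval. The causes were not tested. In XGFP+ constitutive cells the shares of *Tet3* and *Zfp57* rose most without thinning, to 48.9% and 53.4% against 34.1% and 35.2% with it. This order was not shared by all populations. By percentage points, *Dnmt3b* rose most in XGFPlow cells and *Tet2* in XGFPintermediate cells.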

Other observations

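*Dnmt3l* ranked the library numbers alike in 3 groups. In EpiLCs (5000, 3638, 4454 and 2751), XGFP+ PGCLCs (3560, 2351, 2934 and 1935) and XGFP- PGCLCs (327, 261, 284 and 225 normalized counts), library 1 was highest, followed by 3, 2 and 4, while in ESCs (758, 958, 1015 and 1207) library 1 was lowest and library 4 highest. *Dnmt3a* in EpiLCs was likewise higher in libraries 1 and 3 (9793 and 9701) than in 2 and 4 (7473 and 7098). These orders were noticed in the data and were not tested, and the labels do not say what a number stands for. The study's text describes a pair of clones with technical replicates in each group, and whether these orders follow the clones was not tested.

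In single XGFPhigh cells *Dnmt3l* ran against *Dazl* (Spearman's rho -0.477 over 125 cells), and in XGFPlow cells *Zfp57* did (-0.515), both given as descriptions over cells that share a sample and differ in depth. *Zfp57* also ran against *Dazl* in XGFP+ constitutive (-0.299), XGFPhigh (-0.379) and XGFPintermediate cells (-0.338).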
